A study of Caenorhabditis elegans with 8 samples.

Results

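UDP-glucuronosyltransferases (UGTs) were followed in Caenorhabditis elegans embryos and larvae that lack the replacement histone H3.3 or carry it. The family was chosen with earlier results of these data known. Its genes were taken by name: every gene listed in the embryo or L1 count table whose symbol is ugt followed by a number. This gave 62 genes of the 16606 listed in either table. Of these, 52 were listed for embryos, 59 for L1 and 49 for both, and all listed members passed the filter on low counts.

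UGTs sit in the membrane of the endoplasmic reticulum and transfer a sugar from a UDP-sugar donor to small lipophilic molecules, which makes them more soluble and easier to export. In vertebrates the sugar is usually glucuronic acid, while nematode conjugates are often glucosides. The step follows oxidation by cytochrome P450 enzymes in many detoxification routes and runs beside conjugation by glutathione S-transferases and sulfotransferases. ABC transporters then carry conjugates out of the cell. Most of the C. elegans enzymes have no assigned substrate, so the members below are described by their place and their RNA levels.

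FAS43 is the strain without H3.3 and carries uge44, which covers his-69&his-70 on III, and also tm2066 in his-72 (III), ok2289 in his-71 (X) and uge18 in his-74 (V). N2 is the laboratory wild type. Both were grown at 20 °C and collected as L1 larvae, the first larval stage, and as mixed-stage embryos, so the 4 groups were FAS43 L1, N2 L1, FAS43 embryos and N2 embryos, with 2 RNA-seq libraries each. Each genotype is represented by 1 strain. No label says if replicate libraries were made from different cultures, so p-values here reflect library-to-library spread that can be technical. Whole animals and mixed embryos were used, and in such bulk RNA fewer cells of a type and less RNA per cell cannot be told apart.

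Library totals ran from 17408914 to 30127179 counts. Of the targeted H3.3 genes, his-71 had 6 and 6 counts in FAS43 L1 against 4595 and 4020 in N2 L1, and 2 and 3 counts in FAS43 embryos against 2412 and 2461 in N2 embryos. his-72 had 98 and 162 counts in FAS43 L1 against 10881 and 11314 in N2 L1, and 29 and 32 counts in FAS43 embryos against 59440 and 25296 in N2 embryos. his-74 was counted in both strains, with 745 and 301 counts in FAS43 L1 against 319 and 294 in N2 L1, and 1347 and 2063 counts in FAS43 embryos against 3587 and 1177 in N2 embryos, and the labels do not say which bases uge18 changes. Libraries of a group differed in markers of stage. FAS43 L1 replicate 1 correlated with the embryo libraries at 0.760 to 0.879 on log2 CPM across genes, against 0.574 to 0.759 for the other 3 L1 libraries. Its summed level of 12 oocyte and early embryo markers was 1097 CPM, and FAS43 L1 replicate 2 had 441 CPM, while N2 L1 had 309 and 152 CPM. FAS43 embryos had 1019 and 2434 CPM of these markers and N2 embryos 2303 and 1127 CPM. In this sum the replicates of either embryo group differed by more than the genotypes. Most of the N2 difference was 1 gene, pos-1 (1533 and 486 CPM in N2 embryos). Some markers, such as mex-5 (129 and 216 CPM), went the other way there. Embryo replicates also differed beyond these markers. The 10 body-wall muscle markers summed to 2706 and 931 CPM in FAS43 embryos and 1032 and 2638 CPM in N2 embryos, though hlh-1 went the other way in N2. The mean correlation with the L1 libraries was 0.749 and 0.687 for FAS43 embryos and 0.634 and 0.765 for N2 embryos. FAS43 embryo replicate 1 and N2 embryo replicate 2 were thus the higher of their pairs in both measures. The 11 intestine markers listed in both tables summed to 2737 and 11476 CPM in FAS43 L1, 4307 and 4880 CPM in N2 L1, 1575 and 1514 CPM in FAS43 embryos, and 1813 and 1499 CPM in N2 embryos. Single genes set much of these sums: asp-1 had 7712 CPM in FAS43 L1 replicate 2, and lmp-1 had 1270 CPM in N2 embryo replicate 1. The markers disagreed, as elt-7 and lmp-1 were lower in every L1 library than in every embryo library, and asp-1 was higher. The part of these differences in the UGT results was not tested beyond the values given without single libraries.

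The members lie mostly on chromosome V, which holds 39 of the 62 (62.9%), against 20.97% of the listed protein-coding genes. Chromosome IV holds 12, chromosomes I and X hold 4 each, III holds 2 and II holds 1. Positions are those of the Ensembl annotation of WBcel235, the build of the deposited tables. Joining members whose gap was at most 10 kilobases gave 10 arrays with 32 members, and 30 members stood outside arrays. The longest array, on chromosome V from 4887165 to 4911399, holds ugt-12, ugt-11, ugt-9, ugt-10, ugt-8, ugt-14 and ugt-13. Other arrays on V are ugt-40, ugt-37, ugt-38, ugt-39 and ugt-41 (7139475 to 7163595), ugt-5, ugt-4, ugt-6 and ugt-3 (12790676 to 12800271), and ugt-18, ugt-16 and ugt-15 (12820260 to 12830114). Gaps can be short: ugt-5 and ugt-4 are 48 bases apart, ugt-16 and ugt-15 are 76 bases apart, and ugt-40 and ugt-37 overlap by 42 bases. All 62 are annotated as protein-coding, with coding lengths of 1503 to 1794 bases and a median of 1591.5. Because neighbours in an array can be close copies and the handling of reads that match several genes is not given in the sources used here, counts of array members may be shared between copies.

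Levels per length spanned a wide range in both stages (the heat map of all members shows each library). Normalised counts (CPM) divided by the kilobases of annotated exon (CPM per kb) and averaged over the 4 libraries of a stage ran from 0.227 to 43.9 for the 59 members listed in L1, with a median of 3.80. In embryos the 52 listed members ran from 0.263 to 43.0 CPM per kb, with a median of 2.69. The 5 highest members held 34.3% of the family's summed CPM per kb in L1 and 46.0% in embryos. In L1, 12 members were under 1 CPM per kb and 10 were over 10; in embryos these counts were 14 and 9.

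**Figure D1:**
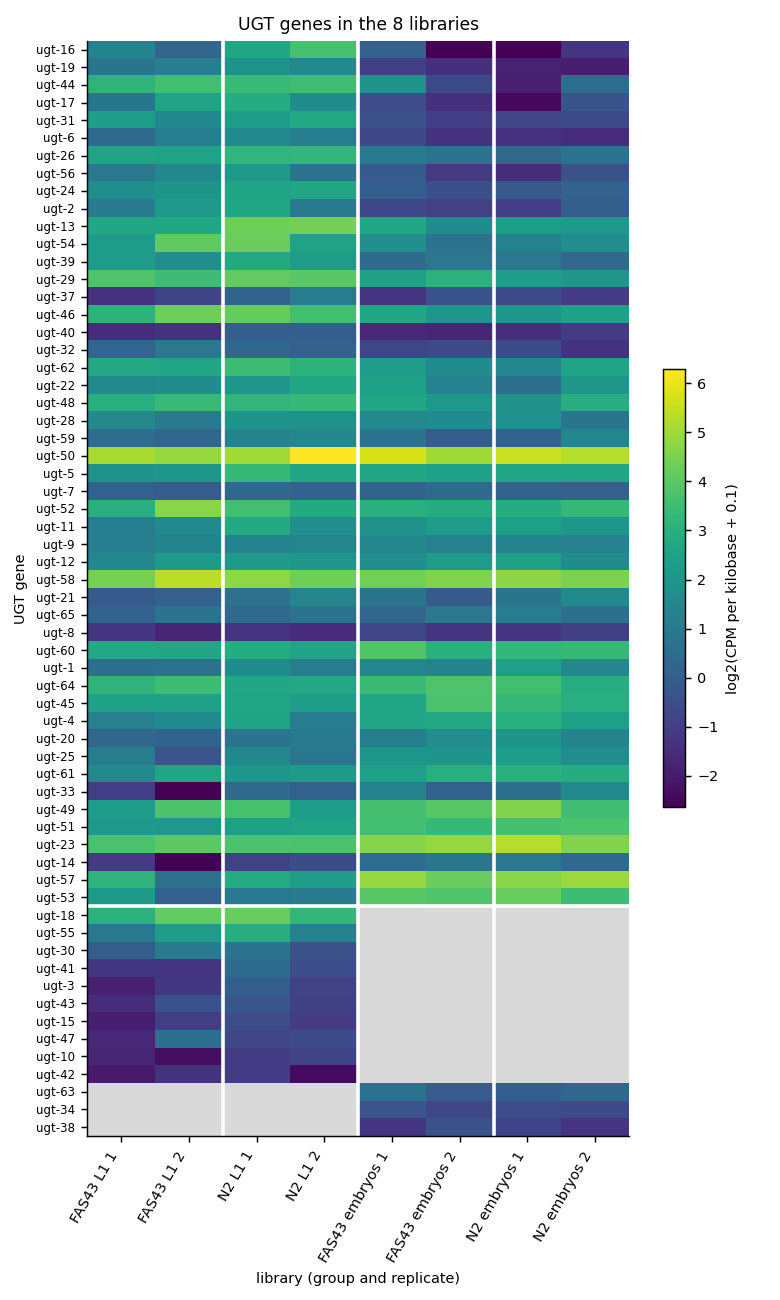
Level of each of the 62 UGT genes (rows) in each of the 8 libraries (columns; FAS43 L1, N2 L1, FAS43 embryos, N2 embryos), as log2 of CPM per kb plus 0.1; grey marks a gene not listed in that stage's table. ugt-50, ugt-58 and ugt-23 are high in every library, while 13 members are listed in 1 table only.

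The highest member in both stages was ugt-50, on X from 12691573 to 12695652. It had 70.6 and 59.6 CPM in FAS43 L1, 65.6 and 156 CPM in N2 L1, 108 and 65.1 CPM in FAS43 embryos, and 93.0 and 78.4 CPM in N2 embryos. The 2 N2 L1 libraries lay further apart than any other pair, and the groups overlapped. Its exons overlap 340 bases of nhr-26 on the other strand, and whether the authors' counting used strand is not given in the sources used here. ugt-48 has the same limit, and its exons overlap 121 bases of cft-1 on the other strand. The exons of ugt-22 overlap 309 bases of srz-29, also on the other strand.

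After ugt-50, the order per length in L1 was ugt-58, ugt-29, ugt-46 and ugt-23. As CPM per kb, ugt-58 (chromosome II) had 31.4 ± 13.2 in FAS43 L1 and 23.4 ± 5.37 in N2 L1. ugt-29 (V) had 12.7 ± 1.78 in FAS43 L1 and 16.8 ± 1.22 in N2 L1. ugt-46 (X) had 14.3 ± 8.02 in FAS43 L1 and 14.7 ± 4.26 in N2 L1, and ugt-23 (X) had 14.6 ± 2.27 in FAS43 L1 and 13.2 ± 0.398 in N2 L1 (SD, n = 2 each). The libraries of ugt-29, ugt-46 and ugt-23 overlapped in FAS43, and in N2 both ugt-29 libraries lay above both ugt-23 libraries. ugt-50, with 32.5 ± 3.90 CPM per kb in FAS43 L1 and 55.2 ± 31.8 in N2 L1, lay within the range of ugt-58 in FAS43 and above it in both N2 libraries.

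In embryos the order after ugt-50 was ugt-23, ugt-57, ugt-58 and ugt-49. ugt-23 had 27.5 ± 2.81 CPM per kb in FAS43 embryos and 31.5 ± 10.7 in N2 embryos, and ugt-57 (X) had 23.9 ± 7.34 in FAS43 embryos and 28.1 ± 3.59 in N2 embryos. ugt-58 had 22.3 ± 2.22 in FAS43 embryos and 24.8 ± 2.71 in N2 embryos. Neighbours in this order overlapped in both genotypes, so the order of these 3 is not fixed by these libraries. ugt-49 (V) followed with 13.9 ± 2.04 CPM per kb in FAS43 embryos and 17.8 ± 8.96 in N2 embryos (SD, n = 2 each). Of the 5 highest members in each stage, 3 lie on X and 0 lie in an array.

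Other members changed rank with stage. ugt-44 stood at place 10 of 59 in L1 and at place 36 of 52 in embryos, and ugt-16 at place 19 in L1 and place 49 in embryos. ugt-57 went the other way, with place 18 in L1 and place 3 in embryos, and ugt-53 stood at place 37 in L1 and place 6 in embryos. The 49 members listed in both tables summed to 449 and 581 CPM in FAS43 L1, 658 and 640 CPM in N2 L1, 564 and 493 CPM in FAS43 embryos, and 585 and 514 CPM in N2 embryos.

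**Figure D2:**
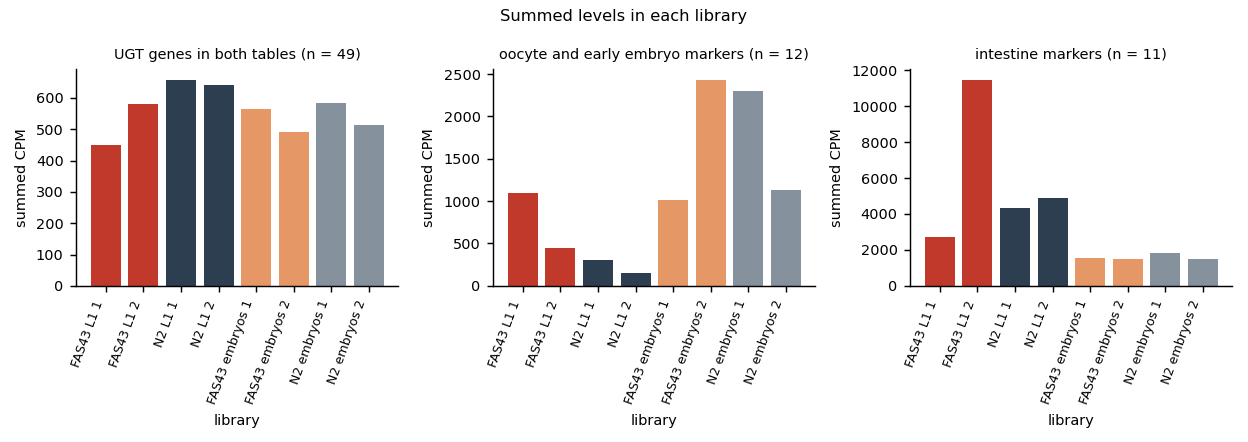
Summed CPM in each of the 8 libraries for the 49 UGT genes listed in both tables, the 12 oocyte and early embryo markers and the 11 intestine markers, with 1 bar per library. The UGT sum lies between 449 and 658 CPM in every library, while the intestine sum reaches 11476 CPM in FAS43 L1 replicate 2 and the early embryo sum is 1097 CPM in FAS43 L1 replicate 1. Of that intestine sum, asp-1 alone holds 7712 CPM.

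The L1 stage was compared with the embryo stage within each genotype, in a fit of all 8 libraries by the quasi-likelihood F-test of edgeR over the 13335 genes in both tables, with Benjamini-Hochberg adjustment and calls at an adjusted p under 0.05. In FAS43, 6 of 49 UGT genes rose in L1 (12.2%, where 15.8% of all genes did) and 4 fell (8.16%, where 9.65% of all genes did). In N2, 15 of 49 rose (30.6%, where 22.6% of all genes did) and 2 fell (4.08%, where 16.2% of all genes did). The median log2 fold change was -0.14 in FAS43 and 0.31 in N2, beside medians over all genes tested of -0.03 in FAS43 and 0.00 in N2. In both genotypes strong risers stood beside members that did not pass the test.

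The largest rise in N2 was that of ugt-16 (V, 12825024 to 12827442). In FAS43 it had 4.38 and 2.06 CPM in L1, against 1.72 and 0.109 CPM in embryos, and it did not pass (log2 fold change 1.86, SE 1.00, edgeR adjusted p = 0.174). In N2 it had 10.7 and 22.7 CPM in L1, against 0.108 and 0.566 CPM in embryos, and the log2 fold change was 5.61 (SE 1.16, edgeR adjusted p = 0.00166). Both N2 L1 libraries lay far above both N2 embryo libraries. FAS43 embryo replicate 1 had the highest ugt-16 level of the 4 embryo libraries.

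ugt-19, on IV, had 2.82 and 3.67 CPM in FAS43 L1, against 0.697 and 0.472 CPM in FAS43 embryos (log2 fold change 2.47, SE 0.754, edgeR adjusted p = 0.0249). It had 6.34 and 5.03 CPM in N2 L1, against 0.324 and 0.283 CPM in N2 embryos (log2 fold change 4.21, SE 0.809, edgeR adjusted p = 0.00108). The stages did not overlap in either genotype, and ugt-19 was the lowest of the 52 members in embryos.

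ugt-44, also on IV, had 15.95 and 21.8 CPM in FAS43 L1, against 6.65 and 0.980 CPM in FAS43 embryos, and did not pass (log2 fold change 2.31, SE 0.927, edgeR adjusted p = 0.0722). In N2 it had 18.7 and 20.9 CPM in L1, against 0.324 and 2.51 CPM in embryos (log2 fold change 3.80, SE 0.991, edgeR adjusted p = 0.00667). The embryo replicates were uneven in both genotypes, with the higher value in FAS43 replicate 1 and in N2 replicate 2.

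ugt-17 and ugt-31 rose in both genotypes. ugt-17 had 2.89 and 10.1 CPM in FAS43 L1, against 1.02 and 0.472 CPM in FAS43 embryos, and 12.6 and 5.37 CPM in N2 L1, against 0.144 and 1.20 CPM in N2 embryos. ugt-31 had 7.99 and 4.57 CPM in FAS43 L1, against 1.07 and 0.654 CPM in FAS43 embryos, and 8.30 and 10.8 CPM in N2 L1, against 0.792 and 0.919 CPM in N2 embryos. The stages did not overlap for either gene, and ugt-31 had the more even replicates. The log2 fold changes of ugt-17 were 3.13 in FAS43 (SE 0.983, edgeR adjusted p = 0.0282) and 3.73 in N2 (SE 0.998, adjusted p = 0.00779). Those of ugt-31 were 2.87 in FAS43 (SE 0.771, edgeR adjusted p = 0.0143) and 3.47 in N2 (SE 0.782, adjusted p = 0.00279).

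ugt-6, ugt-2 and ugt-24 completed the 6 genes that rose in both genotypes (12.2% of the 49 members, where 14.4% of all genes did). ugt-6 had log2 fold changes of 2.09 in FAS43 and 3.24 in N2, ugt-2 had 2.73 in FAS43 and 2.68 in N2, and ugt-24 had 2.23 in FAS43 and 2.69 in N2. The edgeR adjusted p of ugt-6 in FAS43, 0.04996, lay just under the threshold. A further 9 of 49 members rose in N2 and did not pass in FAS43 (8.16% of all genes did), namely ugt-16, ugt-44, ugt-26, ugt-56, ugt-13, ugt-54, ugt-39, ugt-29 and ugt-46, and 0 members rose in FAS43 without passing in N2 (1.4% of all genes did).

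ugt-53 and ugt-57 fell in L1 in both genotypes, 4.08% of the members, where 8.51% of all genes did. ugt-53 had 7.27 and 1.51 CPM in FAS43 L1, against 24.5 and 22.4 CPM in FAS43 embryos (log2 fold change -2.41, SE 0.768, edgeR adjusted p = 0.0296). It had 2.96 and 3.08 CPM in N2 L1, against 29.2 and 17.6 CPM in N2 embryos (log2 fold change -2.96, SE 0.787, edgeR adjusted p = 0.00752). FAS43 L1 replicate 1, the library with the highest early embryo sum among the L1 libraries, had the highest ugt-53 level of the 4 L1 libraries.

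FAS43 L1 replicate 1 also led for ugt-57, with 17.4 and 2.92 CPM in FAS43 L1 and 14.0 and 9.84 CPM in N2 L1. Embryos had 56.7 and 36.5 CPM in FAS43 and 49.7 and 59.6 CPM in N2, so the stages did not overlap. The log2 fold changes of L1 over embryo were -2.19 in FAS43 (SE 0.720, edgeR adjusted p = 0.0335) and -2.20 in N2 (SE 0.720, adjusted p = 0.0230). In FAS43, 2 more genes fell in L1. ugt-14 had 0.579 and 0.101 CPM in FAS43 L1, against 2.31 and 2.90 CPM in FAS43 embryos (log2 fold change -2.87, edgeR adjusted p = 0.0210). ugt-33 had 0.651 and 0.101 CPM in FAS43 L1, against 3.81 and 1.63 CPM in FAS43 embryos (log2 fold change -2.78, edgeR adjusted p = 0.0305). Their FAS43 L1 values rest on 16 and 2 counts for ugt-14 and on 18 and 2 counts for ugt-33. In N2 both were also negative and did not pass. The N2 log2 fold changes were -1.59 for ugt-14 (edgeR adjusted p = 0.116) and -1.01 for ugt-33 (edgeR adjusted p = 0.331).

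**Figure D3:**
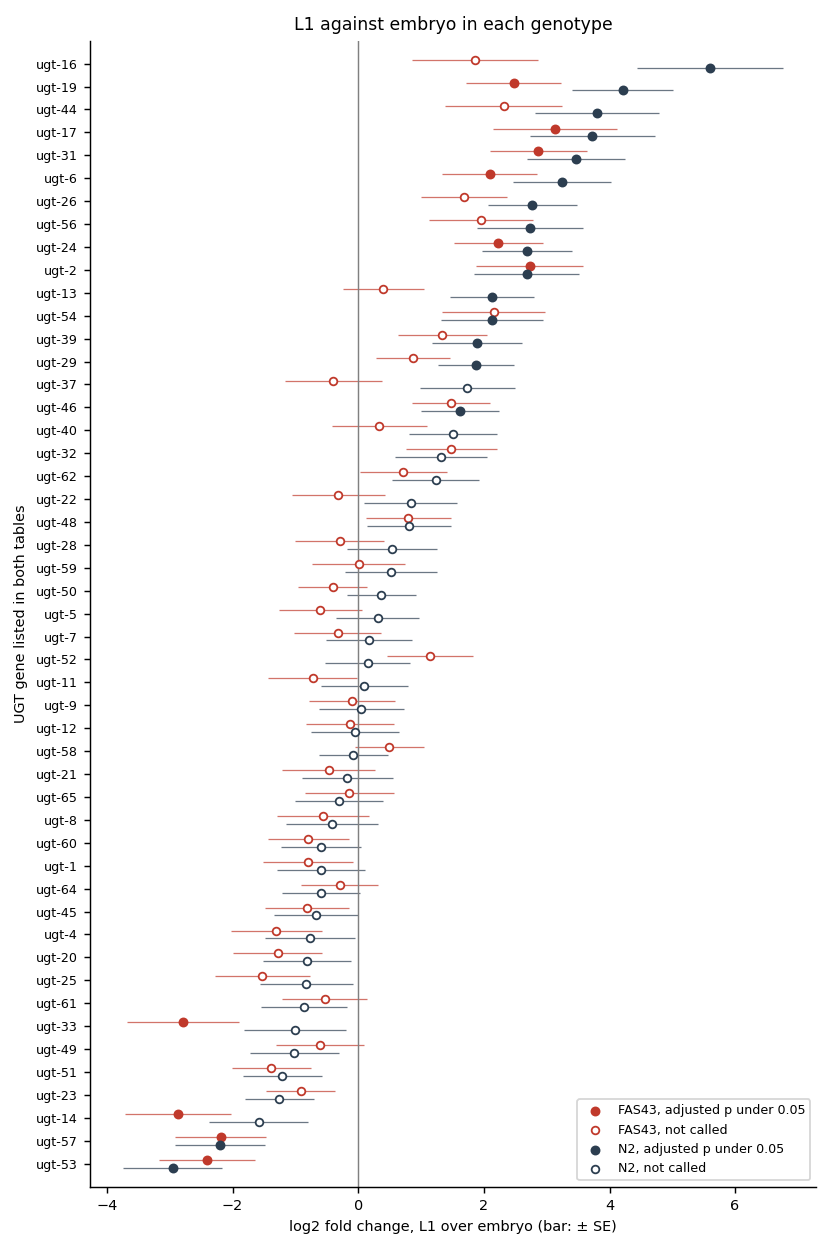
Log2 fold change of L1 over embryo for the 49 UGT genes listed in both tables, in FAS43 and in N2, from the fit of all 8 libraries; bars are ± SE, filled points passed at an adjusted p under 0.05 and open points did not. In 40 of 49 genes the sign is the same in both genotypes (81.6%, where 88.3% of all genes have the same sign); ugt-16 is at 1.86 in FAS43 and 5.61 in N2.

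The stage calls depended on single libraries. Without FAS43 embryo replicate 2, the stage calls in FAS43 were lost for the UGT genes and for most of the other called genes. That fit leaves 1 library in the group. The median log2 fold change in FAS43 was then -0.09 for the UGT genes, against 0.02 for all genes. DESeq2 on all libraries called 11 members higher and 6 lower in FAS43, where it called 20.3% of all genes higher and 15.8% lower. Without N2 embryo replicate 1, 4 members rose and 0 fell in N2 by edgeR, where 8.8% of all genes rose and 3.82% fell. These 4, ugt-16, ugt-19, ugt-6 and ugt-31, rose in N2 under every removal of 1 library.

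Some members of 1 array had unlike stage values, in examples chosen after their values were seen. In the pair ugt-19 and ugt-20, which lie 942 bases apart on the same strand, ugt-19 rose in N2 while ugt-20 had a log2 fold change of -0.82 (2.72 and 3.30 CPM in N2 L1, 6.38 and 4.24 CPM in N2 embryos). In the pair ugt-1 and ugt-2, 980 bases apart, ugt-2 rose and ugt-1 was at -0.59. In the row ugt-5, ugt-4 and ugt-6, with gaps of 48 and 144 bases, the log2 fold changes in N2 were 0.31, -0.77 and 3.24, and only ugt-6 of these 3 passed. In the array of 7, ugt-13 had 2.13 and rose, while its neighbour ugt-14, 579 bases away, was at -1.59 and did not pass. Other members of 1 array were alike in N2. ugt-40, ugt-37 and ugt-39 had log2 fold changes of 1.51, 1.73 and 1.89, of which only that of ugt-39 passed. ugt-12, ugt-11 and ugt-9 were at -0.05, 0.10 and 0.05. Whether members of 1 array differ was not tested.

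Of the 15 genes that rose in N2, 10 lie in arrays and 5 outside, where 23 of the 49 tested members lie in arrays. Both genes that fell in N2 stand outside arrays. In FAS43, 4 of the 6 genes that rose and 1 of the 4 that fell, ugt-14, lie in arrays. Of the 10 members listed in L1 and not in the embryo table, 8 lie in arrays, and their L1 counts ran from 3 to 964 per library. The highest of these 10 was ugt-18, next to ugt-16, with 14.4 and 29.5 CPM in FAS43 L1 and 30.96 and 16.1 CPM in N2 L1, place 7 of 59 per length. ugt-34, ugt-38 and ugt-63 were listed in embryos and not in L1, with 11 to 51 counts per library.

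**Figure D4:**
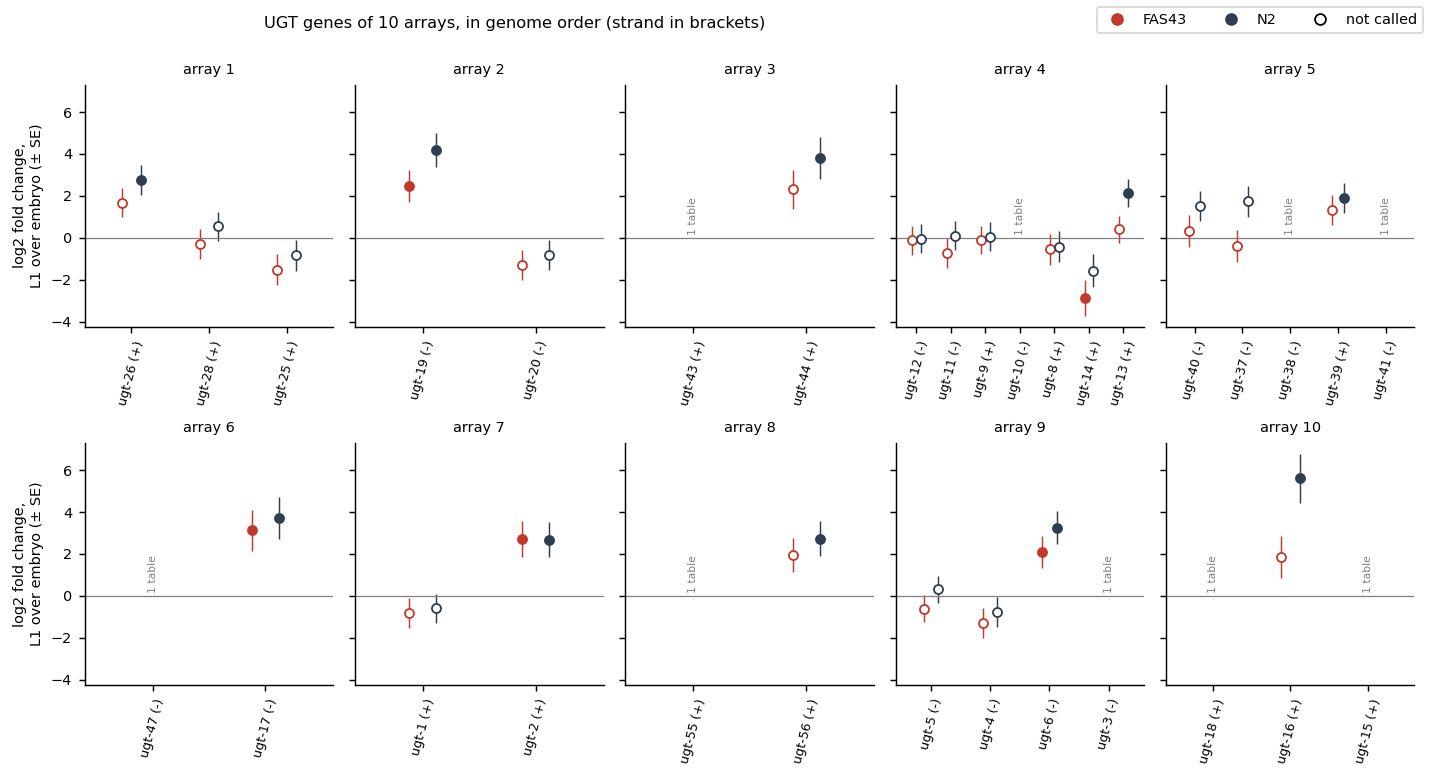
Log2 fold change of L1 over embryo in FAS43 and in N2 for the members of the 10 arrays, in their order along the chromosome with the strand in brackets; bars are ± SE, filled points passed at an adjusted p under 0.05, and members listed in 1 table only have no value. Neighbours such as ugt-19 (2.47 in FAS43, 4.21 in N2) and ugt-20 (-1.28 in FAS43, -0.82 in N2) lie on opposite sides of 0.

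FAS43 was compared with N2 within L1, the comparison that asks what the loss of H3.3 does to these genes in larvae. No UGT gene passed: 0 of 59 were higher and 0 were lower by the quasi-likelihood F-test of edgeR, where 0.00621% of all genes were higher and 0.0124% lower, and DESeq2 also called 0. At an unadjusted p under 0.05 there were 4 members, all lower in FAS43 (6.78% of members; 3.37% of all genes were at this level and 1.58% were lower), and DESeq2 had 5. Negative log2 fold changes were found in 47 of 59 members, where 50.3% of all genes were negative. The median was -0.49 for the family and 0.00 for all genes.

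On the TMM scale of the L1 table, 25 of 59 members had both FAS43 L1 values below both N2 L1 values (14.2% of all genes did), and 2 members, ugt-23 and ugt-64, had both above (12.9% of all genes did). On the 8-library scale, 24 of 49 members were below (11.6% of all genes) and 1, ugt-64, was above (15.6% of all genes). The median stayed negative without any single L1 library. It was -0.29 without N2 L1 replicate 1 (all genes -0.04) and -0.68 without N2 L1 replicate 2 (all genes 0.03). It was -0.49 without FAS43 L1 replicate 1 (all genes -0.02) and -0.65 without FAS43 L1 replicate 2 (all genes -0.11). The tally of signs was weaker without N2 L1 replicate 1, where 35 of 59 members and 51.6% of all genes were negative. The family sum was lower in both FAS43 L1 libraries, 449 and 581 CPM, than in N2 L1, 658 and 640 CPM. Beside these values, 11 of 13 oocyte and early embryo markers and 11 of 12 intestine markers had positive log2 fold changes of FAS43 over N2 in L1, with medians of 1.44 and 0.47.

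The smallest p belonged to ugt-16. It had 4.38 and 2.06 CPM in FAS43 L1, against 10.7 and 22.7 CPM in N2 L1, and the log2 fold change was -2.31 (SE 0.681, unadjusted p = 0.00207, edgeR adjusted p = 0.9996). The genotypes did not overlap, and the N2 replicates differed about as much as the FAS43 replicates. Without single libraries its log2 fold change lay between -3.08 and -1.68.

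ugt-13 had close replicates in both genotypes, with 10.1 and 10.4 CPM in FAS43 L1, against 32.2 and 34.2 CPM in N2 L1. Its log2 fold change was -1.67 (SE 0.573, unadjusted p = 0.00695, edgeR adjusted p = 0.9996), and it lay between -1.77 and -1.61 without single libraries. The gap between the genotypes was many times the gap between replicates. A spread from 2 libraries per group is poorly known, and ugt-13 is named here for its small p. The fit shares its spread over genes, so this gene's own spread enters it only in part. In embryos ugt-13 had 10.5 and 5.08 CPM in FAS43 and 8.25 and 6.90 CPM in N2, so the N2 L1 libraries stood above all other libraries.

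ugt-37, ugt-33 and ugt-40 followed at lower levels. ugt-37 had 0.506 and 0.804 CPM in FAS43 L1, against 1.83 and 3.69 CPM in N2 L1, and the log2 fold change was -2.05 (SE 0.826, unadjusted p = 0.0192, edgeR adjusted p = 0.9996). ugt-33 had 0.651 and 0.101 CPM in FAS43 L1, against 2.06 and 1.62 CPM in N2 L1, and the log2 fold change was -2.16 (SE 0.918, unadjusted p = 0.0255, edgeR adjusted p = 0.9996). ugt-40 had 0.434 and 0.503 CPM in FAS43 L1, against 1.59 and 1.57 CPM in N2 L1, and the log2 fold change was -1.72 (SE 0.858, unadjusted p = 0.0543, edgeR adjusted p = 0.9996). In all 3 genes the genotypes did not overlap, and the FAS43 values rest on 2 to 18 counts per library. ugt-40 and ugt-37 overlap by 42 bases on the same strand, and reads in that stretch match both genes.

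The authors' deposited table marks 4 of its 59 UGT genes in L1, namely ugt-16, ugt-13, ugt-37 and ugt-33, where it marks 3.56% of all listed genes. All 579 marked genes of that table have an unadjusted p under 0.05, and 3 of them an adjusted p under 0.05. In the authors' deposited table the 4 UGT genes have unadjusted p-values from 0.00157 to 0.0226 and an adjusted p of 0.9998. In embryos the authors' deposited table marks 0 of 52 UGT genes and 0.613% of all listed genes.

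**Figure D5:**
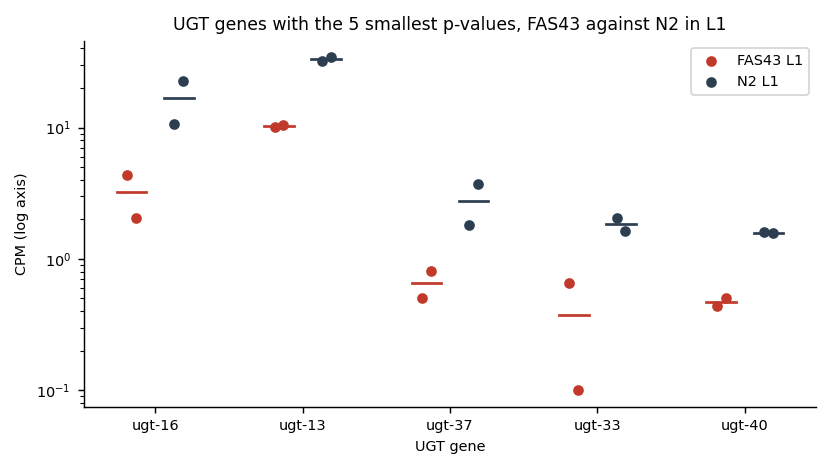
CPM (log axis) of single libraries (points) and group means (lines) in FAS43 L1 and N2 L1 for the 5 UGT genes with the smallest p in this comparison. Both FAS43 values lie below both N2 values for each gene, with close replicates for ugt-13 (10.1 and 10.4 CPM in FAS43 L1, 32.2 and 34.2 CPM in N2 L1). The genes were picked by p from these same libraries, so their separation follows in part from the choice.

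ugt-22, ugt-25 and ugt-1 were taken as points of comparison. ugt-22, which alters the effect of the anthelmintic albendazole in C. elegans, had 6.58 and 6.99 CPM in FAS43 L1 and 8.77 and 13.6 CPM in N2 L1. ugt-25 had 3.36 and 1.21 CPM in FAS43 L1 and 4.65 and 2.85 CPM in N2 L1, and ugt-1 had 2.53 and 2.66 CPM in FAS43 L1 and 5.45 and 3.58 CPM in N2 L1. ugt-22 and ugt-1 did not overlap between the genotypes, ugt-25 did, and none of the 3 passed the test.

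In embryos no member passed between FAS43 and N2. By edgeR 0 of 52 were higher and 0 lower (all genes 0.00734% and 0.0147%), 0 of 52 had an unadjusted p under 0.05 (all genes 0.698%), and DESeq2 gave 0 by both measures. Log2 fold changes ran from -1.09 to 1.12, with a median of -0.14 against -0.08 for all genes. There were 35 negative values among the 52 (59.9% of all genes were negative). These embryo tallies moved with the scaling and the libraries used, for the family and for all genes alike. In the fit of all 8 libraries 24 of 49 members were negative (45.5% of all genes), with a median of 0.00 against 0.03 for all genes. With genes under 1 CPM left out, 19 of 42 were negative (36% of all genes), with a median of 0.03 against 0.10, and without N2 embryo replicate 2, 20 of 52 were negative (36.5% of all genes), with a median of 0.14 against 0.17. On the TMM scale of the embryo table, libraries did not overlap for 8 of 52 members that were lower in FAS43 (all genes 7.46%) and for 3 that were higher (all genes 3.49%). On the 8-library scale of the CPM printed here, 4 of 49 members were lower without overlap (all genes 5.11%) and 5 were higher (all genes 4.2%), so the balance turned with the scale. ugt-19, ugt-26 and ugt-6 were higher in FAS43 embryos on both scales.

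The smallest p in embryos belonged to ugt-44, with 6.65 and 0.980 CPM in FAS43 and 0.324 and 2.51 CPM in N2 (log2 fold change 1.12, SE 0.898, edgeR adjusted p = 0.9999). ugt-21 had 2.79 and 1.38 CPM in FAS43 embryos and 2.81 and 4.92 CPM in N2 embryos (log2 fold change -1.09, SE 0.879), and ugt-16 had 1.72 and 0.109 CPM in FAS43 and 0.108 and 0.566 CPM in N2 (log2 fold change 1.10, SE 1.00). ugt-1 and ugt-59 had log2 fold changes of -0.70 (SE 0.819) and -0.75 (SE 0.884). For ugt-44, ugt-16 and ugt-59 the genotypes overlapped and the sign rested on 1 library. Without FAS43 embryo replicate 1 ugt-44 was at -0.55 and ugt-16 at -1.60, and without N2 embryo replicate 2 ugt-59 was at 0.40.

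Whether the genotype difference itself differed between L1 and embryos was tested as an interaction in the fit of all 8 libraries, which is also the difference of the stage effect between the genotypes. By edgeR 0 of 49 UGT genes passed, as did 0 of all 13335 genes; 1 of 49 had an unadjusted p under 0.05 (all genes 1.49%), and DESeq2 called 0 and had 2 at that level. The member was ugt-16, with a difference of -3.75 on the log2 scale (SE 1.44, unadjusted p = 0.0175, edgeR adjusted p = 0.9986). ugt-37 followed at -2.13 (SE 1.08, unadjusted p = 0.0639, edgeR adjusted p = 0.9986) and ugt-13 at -1.73 (SE 0.918, unadjusted p = 0.0747, edgeR adjusted p = 0.9986). Without FAS43 embryo replicate 1 the value of ugt-16 was -0.78. Values were negative for 37 of 49 members (48.9% of all genes), with a median of -0.50 against 0.02. The 9 genes called in N2 and not in FAS43 are therefore not shown to differ between the genotypes. The same holds for ugt-14 and ugt-33, called in FAS43 and not in N2.

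Other genes of the route were counted on the same fits. Of 7 genes for UDP-sugar enzymes, a nucleotide sugar transporter and sulfation, 1 passed in the stage comparison: ssu-1, a sulfotransferase. It had 4.34 and 8.75 CPM in FAS43 L1, against 0.643 and 0.0726 CPM in FAS43 embryos (log2 fold change 4.24, edgeR adjusted p = 0.0101). It had 5.95 and 4.87 CPM in N2 L1, against 0.0720 and 0.637 CPM in N2 embryos (log2 fold change 3.91, edgeR adjusted p = 0.00685). The UDP-glucose dehydrogenase gene sqv-4, whose product makes UDP-glucuronic acid, had 42.8 and 26.0 CPM in FAS43 L1, 30.8 and 46.5 CPM in N2 L1, 34.6 and 27.5 CPM in FAS43 embryos, and 17.4 and 36.9 CPM in N2 embryos, and did not pass. None of the 6 UDP-sugar genes passed in either genotype, and by edgeR none had an unadjusted p under 0.05. DESeq2 had 1 more of the list at that level in N2.

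For the lists that follow, the shares of all genes called higher and lower in L1 were 15.8% and 9.65% in FAS43, and 22.6% and 16.2% in N2. Of 14 regulators of xenobiotic genes, 2 rose in L1 of FAS43: the nuclear hormone receptor gene daf-12 (log2 fold change 2.94, edgeR adjusted p = 0.0238) and the forkhead factor gene daf-16 (log2 fold change 1.77, edgeR adjusted p = 0.0458). In N2 their log2 fold changes were 2.14 and 0.96, and 0 of the 14 passed by edgeR (1 at an unadjusted p under 0.05; DESeq2 called 1). Of 19 ABC export pumps, 10 rose and 0 fell in FAS43, and 9 rose and 1 fell in N2. The largest change in N2 was that of pgp-8, with log2 fold changes of 4.88 in FAS43 and 6.70 in N2, followed in N2 by pgp-14 (5.33), pgp-9 (4.97) and pgp-11 (4.80), while mrp-4 fell in N2 (-1.73). Of 42 cytochrome P450 genes, 11 rose and 0 fell in FAS43, and 16 rose and 2 fell in N2. Of 34 glutathione S-transferases, 9 rose and 1 fell in FAS43, and 21 rose and 0 fell in N2.

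In the genotype comparison of L1, 0 genes of these 5 lists passed by edgeR or DESeq2. At an unadjusted p under 0.05 both tools had 8 glutathione S-transferases and 7 P450 genes, and 0 genes of the other 3 lists. Of all genes, 3.37% were at this level by edgeR, and 588 of 16249 were by DESeq2. The median log2 fold change was -0.86 for glutathione S-transferases (38 of 46 negative) and -0.34 for P450 genes (47 of 69 negative), beside -0.49 and 47 of 59 for the UGT genes. Of all genes 50.3% were negative. ABC pumps had a median of 0.14, regulators 0.21 and the UDP-sugar and sulfation genes -0.02.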

How the data were processed

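RNA-seq counts of 8 C. elegans libraries were used, 2 for each of FAS43 L1, N2 L1, FAS43 embryos and N2 embryos, grouped by their GEO labels. The authors deposited a table per stage with raw counts per gene, not normalized, per the file headers. The same deposited tables hold a normalized signal per library, a log2 fold change and a log2 abundance, and a p-value with its adjusted form, per the file headers; of these, the log2 fold changes, p-values and marks for significance were read only to say which UGT genes the authors marked. TopHat2 2.0.13, HTSeq 0.6.1, edgeR 3.10.5 and the build WBcel235 are named per the submitters' processing notes; the sources used here do not give their settings, including strand and the handling of reads that match several genes. The tables list genes with 10 or more counts in 2 or more libraries; lower genes were not analysed here.

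Counts were fitted with edgeR 4.0.16 in R 4.3.3 (TMM factors, filterByExpr, quasi-likelihood F-test, Benjamini-Hochberg adjustment over all genes tested). FAS43 was set against N2 within each stage over 13617 genes in embryos and 16099 in L1, with 2 residual degrees of freedom. L1 against embryo and the interaction came from a fit of all 8 libraries over 13335 genes, with 4 residual degrees of freedom; this takes both tables as counted alike. SE was derived from F, as the size of the log2 fold change divided by √F. CPM of members in both tables use the TMM scale of all 8 libraries, other members that of their stage, so the latter are not on quite the same scale. Exon and coding lengths, positions and overlaps came from the Ensembl annotation of WBcel235, where all 62 symbols matched.

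The members and gene lists were chosen with earlier results of these data known. Genes are named by a rule: the 5 highest members per kilobase in each stage, the 6 largest called stage changes per direction with a mean CPM of at least 1, the 5 smallest p-values per genotype comparison, the 3 smallest interaction p-values, ugt-22, ugt-25 and ugt-1, and called list members. Other genes, such as neighbours in arrays, were chosen after their values were seen. A part of the rule on protein similarity was not applied, because no protein sequences were used here. Alternatives were RLE size factors, DESeq2 1.42.0, other filters, a replicate block, leaving out each library, a single fit for the genotype comparisons and coding length. The fits were tested on simulated data. Totals of 17408914 to 30127179 counts set the counting error, and the spread between libraries rests on 2 per group.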

Additional observations from a re-analysis of the deposited data

How the results depend on the processing

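Leaving out each library in turn gave 0 to 7 members higher and 0 to 4 lower for L1 over embryo in FAS43 (6 and 4 with all libraries), and 4 to 14 higher and 0 to 2 lower in N2 (15 and 2). In FAS43 the counts were 3 higher and 1 lower without FAS43 embryo replicate 1, 1 and 0 without FAS43 L1 replicate 2, and 3 and 1 without N2 L1 replicate 1 or without N2 L1 replicate 2. In N2 they were 10 and 2 without N2 embryo replicate 2, 7 and 0 without N2 L1 replicate 1, and 10 and 0 without N2 L1 replicate 2. Over these removals the share of all genes called ran from 1.78% to 17.6% higher and from 0.127% to 11.8% lower in FAS43, and from 8.8% to 23.6% higher and from 3.82% to 18.1% lower in N2. Such a fit has fewer residual degrees of freedom, and the lone sample of a group is assumed to vary like the other groups. DESeq2 called 11 higher in FAS43 (20.3% of all genes) and 4 lower in N2 (21.3% of all genes). In the genotype comparisons and the interaction, 0 members were called under every alternative run. Among the named stage changes, 46 of 140 values in FAS43 and 10 of 112 in N2 kept their direction and missed the threshold, and 0 reversed. Between the genotypes in embryos, leaving out single libraries gave -0.55 to 3.56 for ugt-44, -1.60 to 3.001 for ugt-16 and -1.31 to 0.40 for ugt-59, with the reversed ends at ugt-44 and ugt-16 without FAS43 embryo replicate 1 and at ugt-59 without N2 embryo replicate 2. The cause of these shifts was not tested.

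The labels do not say that replicate numbers pair the libraries, and the deviations of same-numbered libraries correlated at -0.520 between the genotypes in embryos, -0.181 in L1, -0.192 between the stages in FAS43 and -0.113 in N2. With the replicate block, 4 members were higher and 4 lower in FAS43, where 13.9% and 8.79% of all genes were. In N2 the counts were 12 and 2, where 20.7% and 13% of all genes were. The genotype comparisons and the interaction kept 0. A crossed replicate block, chosen after seeing the data, gave 7 and 3 in FAS43 (19.5% and 14.9% of all genes). It gave 14 and 2 in N2 (24.1% and 17.9% of all genes), and 0 for the genotype comparisons. On the 8-library scale, also chosen after seeing the data, 5 members were higher and 4 lower in FAS43 embryos than in N2 embryos without overlap, and 1 was higher and 24 lower in FAS43 L1 than in N2 L1. Ranks by coding length, also added after seeing the data, kept 5 of the 5 highest members in each stage. Members with few counts, such as ugt-14 and ugt-33 in FAS43 L1, are limited by depth.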

Other observations

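The annotation holds 67 genes with ugt symbols. Besides the 62 members, 2 of them were listed under sequence names and so fell outside the choice by symbol. H23N18.4, annotated as ugt-67, was listed in L1, with 5 and 3 counts in FAS43 L1 and 19 and 19 counts in N2 L1. C23G10.6, annotated as ugt-66, had 24 and 7 counts in FAS43 L1, 47 and 12 in N2 L1, 23 and 9 in FAS43 embryos, and 22 and 28 in N2 embryos.

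Replicates of a group were compared on the TMM scale of their stage's table. In L1 they differed by more than 2-fold for 19 of 59 members in FAS43 (32.3% of all genes) and 14 of 59 in N2 (29.4% of all genes). In embryos they did so for 5 of 52 members in FAS43 (30.1% of all genes) and 11 of 52 in N2 (41.8% of all genes). In N2 L1, 12 of the 14 were higher in replicate 1, and in FAS43 L1, 12 of the 19 were higher in replicate 2. In N2 embryos 10 of the 11 were higher in replicate 2, and in FAS43 embryos 3 of the 5 were. The direction of 2-fold differences was not counted over all genes, so these tallies cannot set the family apart from the libraries as a whole. They also move with the scale. On the 8-library scale of the CPM printed here, more members pass 2-fold in FAS43 embryos, most of them higher in replicate 1. ugt-54 was among the members with uneven replicates, with 7.78 and 28.6 CPM in FAS43 L1 and 31.5 and 9.40 CPM in N2 L1. ugt-49 had 7.74 and 22.5 CPM in FAS43 L1 and 20.9 and 8.11 CPM in N2 L1, and ugt-18 had 14.4 and 29.5 CPM in FAS43 L1 and 30.96 and 16.1 CPM in N2 L1. Among regulators, daf-12 had 53.4 and 103.9 CPM in FAS43 L1 and 98.1 and 9.23 CPM in N2 L1.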
